A study of Drosophila melanogaster with 2 samples.

Results

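The regions described here are the Huckebein peaks on 3L, the left arm of the third chromosome of Drosophila melanogaster. They are all the peaks that the deposited list places on 3L, 280 of 1623 peaks or 17.3% of the list, with sequence named 3LHet left out. The peaks come from chromatin immunoprecipitation followed by sequencing (ChIP-seq), in which cross-linked chromatin is sheared, the fragments carrying a protein are pulled down with an antibody, and their DNA is sequenced. The ChIP group is whole embryos of 8 to 16 h, given no treatment and precipitated with the antibody KW3-hkb-D1, and its title names replicates 1 and 2 together. Input chromatin of the same age is the control group, and its values were not analysed here. The flies are labelled as iso1 (y; bw cn sp) or transgenic, without saying which gave these embryos. As a single list was analysed, peak values have no replicate spread, and the read depth behind them is unknown. The arms are set side by side as a description, and no difference between them was tested.

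Huckebein, the product of the gene hkb on 3R, is a zinc-finger transcription factor that acts mainly as a repressor. Its gene belongs to the terminal gap genes, which pattern both ends of the early embryo, and there it limits the mesoderm and specifies endoderm. Later in embryogenesis it is used in the forming salivary gland and in a set of neuroblasts. Whole embryos hold all of these tissues together with many that lack the factor. A peak therefore says that the region was enriched in the mixture, and not in which cells.

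The 3L peaks ran from 368045 to 23606745 (positions are 1-based on BDGP5), a span of 23.2 Mb that they covered to 0.848%, or 197 kb. That gave 12.05 peaks per Mb on 3L, against 10.5 on 2L, 13.4 on 3R and 17.6 on X. By density 3L thus stood between 2L and 3R, and X was above all of them. The same order held among peaks scoring 100 or more, with 6.46 peaks per Mb on 3L, 5.49 on 2L, 6.82 on 3R and 10.3 on X.

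The first peak of the arm, 368045 to 368808, scored 199.2 over 764 bp. The last one, 23606387 to 23606745, scored 77.62 over 359 bp and lay 313 kb from its nearest neighbour, the peak at 23293470 to 23294247 with a score of 327.48. These neighbours at the end with the highest coordinates were each other's nearest peak and the most isolated of the 280. The score is the authors' own value per peak, and its scale is not stated. It is used here to describe, rank and compare peaks of the list. Sums and ratios of scores given below describe the listed values and cannot be read as fold enrichment.

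Huckebein peaks on 3L were most numerous at the low-coordinate end of the span, near its middle and towards its high-coordinate end. When the span was divided into 10 equal parts of 2.32 Mb, parts 1 and 2 held 38 and 39 peaks, part 6 held 34 and part 10 held 37. The other parts held 16 to 25, with the fewest in part 7. The most and the fewest differed 2.44-fold on 3L, against 4.33-fold on 2L, 2.60-fold on 3R and 3.17-fold on X. Parts 1 and 2 together held 27.5% of the 3L peaks, 24.4% of those on 2L, 22.8% on 3R and 21.0% on X. For parts 9 and 10 together the shares were 21.1% on 3L, 14.1% on 2L, 24.7% on 3R and 27.3% on X.

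**Figure D1:**
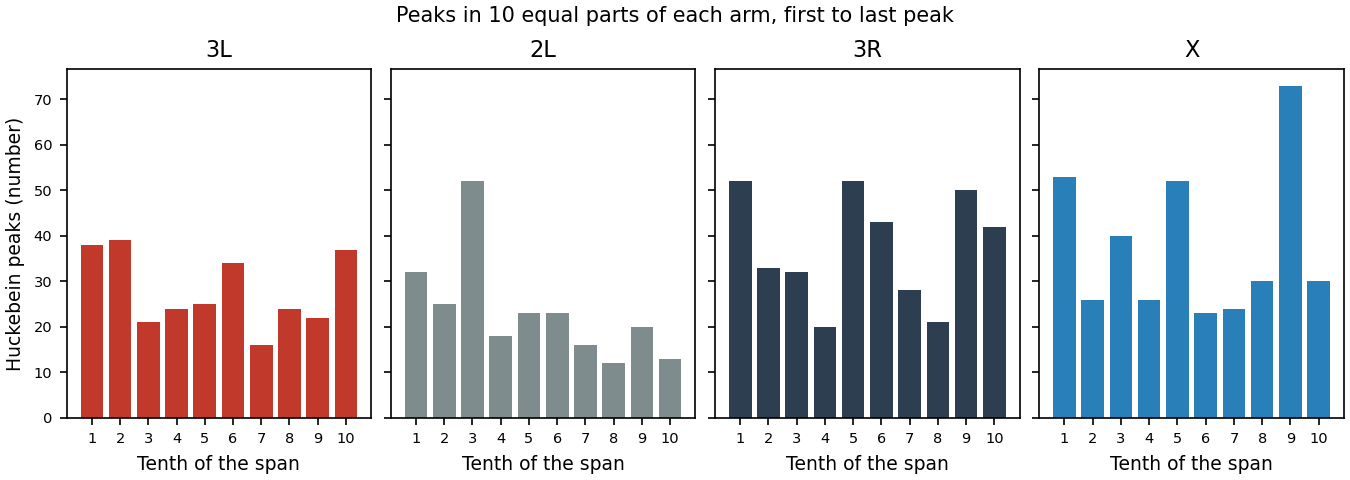
Number of Huckebein peaks (vertical axis) in 10 equal parts of the span from the first to the last peak (horizontal axis, low to high coordinates) on 3L, 2L, 3R and X. On 3L the parts hold 16 to 39 peaks, with the tallest bars at parts 1, 2, 6 and 10.

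Counted in complete 1 Mb bins, 3L had 12.1 ± 5.33 peaks per bin (SD over 23 bins), against 10.5 ± 7.18 on 2L (22 bins), 13.5 ± 5.29 on 3R (27 bins) and 17.7 ± 8.99 on X (21 bins). The variance was 2.35 times the mean on 3L, 4.91 times on 2L, 2.07 times on 3R and 4.57 times on X. By this ratio 3L was near 3R, while 2L and X were higher. At a given relative unevenness the ratio rises with the mean, which was highest on X. It therefore does not show by itself that X was more uneven than 3L. The densest bin of 3L, 1000001 to 2000000, held 24 peaks, 9 of them within 5 kb of another. The bin 21000001 to 22000000 held 20 peaks, and 3000001 to 4000000 and 22000001 to 23000000 held 18 each. The emptiest were 14000001 to 15000000 and 15000001 to 16000000 with 5 peaks each, followed by 18000001 to 19000000 with 6. These low bins include a pair side by side, and the second of that pair was also low in score. Its highest peak scored 67.73, against 359.2 for the highest in the bin before it. No complete bin was empty on 3L, 3R or X, whereas 2L had a bin with 0 peaks.

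The parts with the most peaks, 1 and 2, also had the highest median scores, at 129.81 and 134.69. Score did not follow peak number throughout, as part 5, with 25 peaks, had a median of 129.4. Parts 6 and 10, with 34 and 37 peaks, had 114.77 and 120.55, and part 4, with 24, had 114.515. The lowest median was 73.855 in part 9, which nevertheless held peaks scoring 783.09 and 773.23. The 95% order-statistic intervals of the medians, 94.66 to 170.22 for the 39 peaks of part 2 and 61.64 to 208.11 for the 22 peaks of part 9, overlapped widely. Median width varied less, between 593 and 707 bp.

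The 5 longest stretches without a peak were of like length. They were 20184387 to 20686037 (502 kb), 6253782 to 6741215 (487 kb), 15099046 to 15582502 (483 kb), 14119303 to 14591483 (472 kb) and 4765798 to 5211945 (446 kb). The longest distance between consecutive midpoints was 502 kb on 3L, against 1138 kb on 2L, 657 kb on 3R and 648 kb on X. Thus 3L was the arm of these 4 with the shortest maximum. Of the 10 peaks at the borders of these 3L stretches, 6 scored under 100, against 132 of all 280 3L peaks (47.1%). Examples were 59.59 and 56.18 on either side of the stretch at 15099046. The highest border peak, before the stretch at 14119303, scored 359.2.

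The scores of the 3L peaks were skewed, with many low peaks and a thin upper tail. Their median was 106.8 (95% order-statistic interval 94.66 to 126.23, which treats peaks as independent draws), the quartiles were 69.98 and 178.2, and the range was 50.03 to 1103.6. Scores of 50 to under 60 were held by 33 peaks (11.8%), 60 to under 100 by 99 (35.4%), 100 to under 200 by 90 (32.1%), 200 to under 500 by 46 (16.4%) and 500 or more by 12 (4.29%). The 12 highest peaks carried 19.06% of the summed score of the arm. The median of 3L lay beside 103.7 on 2L, 100.99 on 3R and 114.55 on X, and the intervals of all 4 arms overlapped. Peaks scoring 200 or more made up 20.7% on 3L (95% Clopper-Pearson interval 16.1 to 25.9%), 20.5% on 2L, 22.5% on 3R and 27.9% on X.

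**Figure D2:**
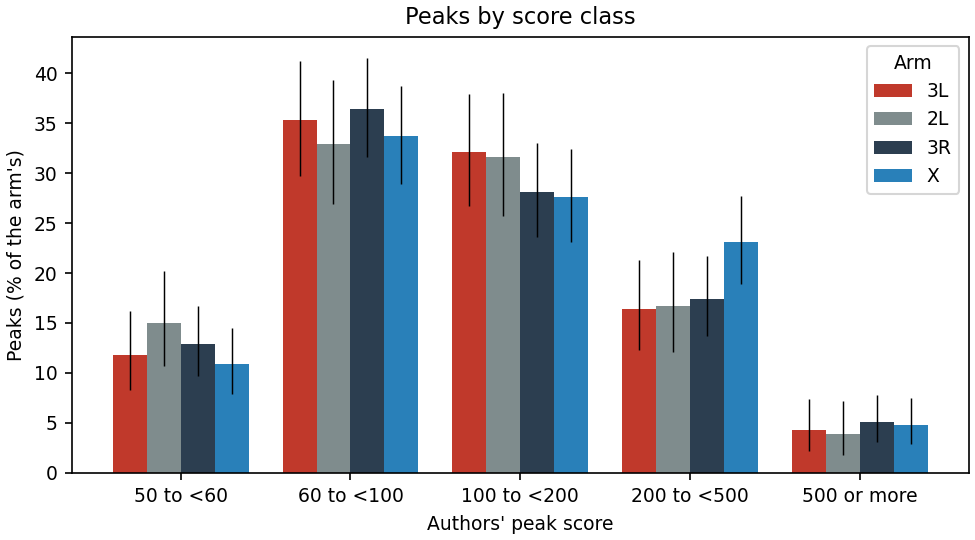
Share of each arm's Huckebein peaks (vertical axis, %) in 5 classes of the authors' peak score (horizontal axis) for 3L, 2L, 3R and X, with exact 95% binomial intervals as lines. The class of 60 to under 100 is the largest on 3L at 35.4%, and X stands above the other arms at 200 to under 500.

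The highest 3L peak, 17069775 to 17070891, scored 1103.6 over 1117 bp and ranked 7 in the whole list. The second, 13884296 to 13885172, scored 968.8 over 877 bp and ranked 12. Both were single peaks, with the nearest neighbours 55.7 and 38.5 kb away and scoring only 70.11 and 75.55. The strongest peaks of the arm thus stood apart from other high peaks.

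Next came 1141858 to 1142799 with a score of 809.28 and 17946640 to 17947960 with 800.87. Each had a close and much lower companion, at 2.42 kb with a score of 51.44 and at 1.42 kb with a score of 124.05. The peaks ranked 5 and 6 on the arm, 19100349 to 19101445 (783.09) and 19136784 to 19137776 (773.23), were each other's nearest neighbour at 36.4 kb. This was the shortest distance between any 2 of the 12 highest peaks, and the pair was nearly equal in score.

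The other 6 scored 513.7 to 661.77. They were 1038291 to 1039248 (661.77), 4436911 to 4438176 (572.64), 13030840 to 13032890 (567.74), 21654311 to 21655560 (530.33), 22793242 to 22794336 (519.9) and 3371453 to 3372565 (513.7). The one at 13030840 was also the second widest peak of the arm and was isolated, with its nearest neighbour 239 kb away. Those at 21654311 and 22793242 had companions at 4.15 kb (score 125.82) and 2.80 kb (score 139.77).

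Of the 12 peaks scoring 500 or more, 4 (33.3%) lay within 5 kb of another peak, close to the 29.6% of all 3L peaks. None of their 4 companions scored 200 or more, a level reached by only 20.7% of all 3L peaks. The 12 were 877 to 2051 bp wide, all above the arm's median width, and their median distance to the nearest peak was 34.1 kb, against 15.5 kb over all 280. They were unevenly placed. Between 4438176 and 13030840, over 8.59 Mb between midpoints, none of 90 peaks scored 500 or more, with 4 of the 12 before this stretch and 8 after it. The highest within it was 6115139 to 6115814, at 452.95. The median score of the 90 peaks was 104.185, slightly below the 107.715 of the other 190 peaks of the arm. In this stretch 18.9% scored 200 or more, against 21.6% elsewhere on 3L. The longest distance between peaks scoring 500 or more was 7.27 Mb on 2L, 8.69 Mb on 3R and 4.14 Mb on X, so a stretch of like length was present on 3R. The 3L stretch was picked with its values in view.

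The 3L peaks had a median width of 648 bp (95% order-statistic interval 622 to 683), quartiles of 521 and 828 bp and a range of 215 to 2278 bp. The medians of the other arms were 630 bp on 2L, 680 bp on 3R and 614 bp on X. Wider peaks tended to score higher across the 280 peaks (Spearman's rho = 0.59, and Pearson's r = 0.60 after taking logarithms). This is a description across peaks of the same list, where both values come from the same reads. The corresponding rho was 0.57 on 2L, 0.52 on 3R and 0.72 on X. By score class the median width on 3L was 500 bp at 50 to under 60, 572 bp at 60 to under 100, 671 bp at 100 to under 200, 816 bp at 200 to under 500 and 1105 bp at 500 or more.

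**Figure D3:**
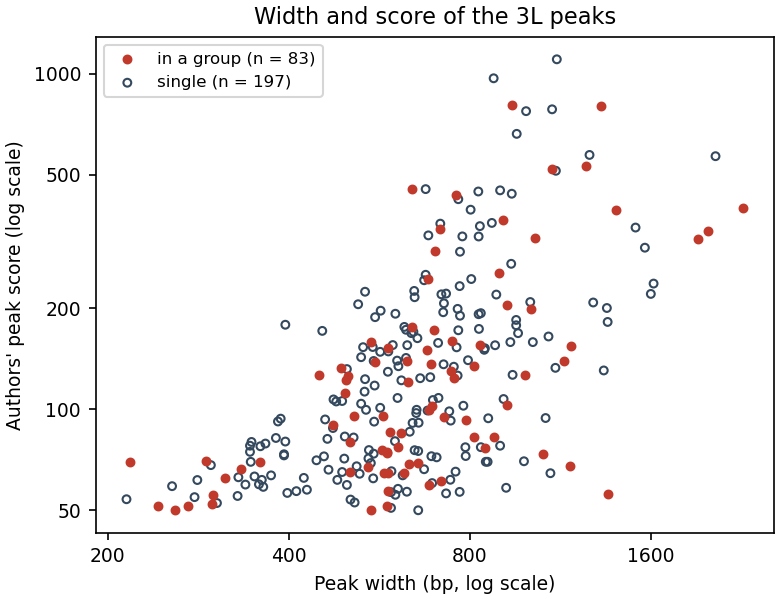
Width in bp (horizontal axis, log scale) and authors' score (vertical axis, log scale) of the 280 3L peaks, filled for the 83 peaks in a group of close peaks and open for the 197 single peaks. Both kinds cover the same cloud, in which wide peaks tend to score higher, and the widest peaks are not the highest.

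The 5 widest 3L peaks all scored 200 or more, without being the highest of the arm. They were 8458924 to 8461201 (2278 bp, score 398.89), 13030840 to 13032890 (2051 bp, 567.74), 3836430 to 3838424 (1995 bp, 338.73), 1749923 to 1751840 (1918 bp, 322.1) and 16577583 to 16579200 (1618 bp, 236.94). Of these 5, the one at 13030840 alone was among the 12 highest. Those at 8458924, 3836430 and 1749923 had a neighbour at 3.16, 1.66 and 3.37 kb. At the other end, the 5 narrowest scored 50.03 to 69.84. They were 19342381 to 19342595 (215 bp), 17378766 to 17378983 (218 bp), 22823765 to 22824007 (243 bp), 3767097 to 3767352 (256 bp) and 5689817 to 5690075 (259 bp). The last of these was the lowest-scoring peak of the arm and lay beside a peak scoring 254.3. Narrow peaks under 400 bp numbered 38 with a median score of 63.335, and peaks of 1200 bp or more numbered 17 with a median score of 322.1.

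Distances between consecutive 3L peaks ranged from 497 bp to 502 kb between midpoints, with a median of 41.0 kb, against 45.6 kb on 2L, 42.7 kb on 3R and 22.7 kb on X. Of the 279 distances, 44 (15.8%) were up to 5 kb, 59 (21.1%) were over 5 and up to 25 kb, 95 (34.1%) over 25 and up to 100 kb and 81 (29.03%) over 100 kb. Distances over 5 and up to 10 kb were fewer than either class beside them, with 15 on 3L against 23 over 2 and up to 5 kb and 44 over 10 and up to 25 kb. These classes differ in breadth, and no random placement was made here to say what is usual. Scores of consecutive peaks showed little relation in rank (Spearman's rho = -0.08 over 279 pairs of neighbours, a description). High peaks on 3L thus had both high and low neighbours.

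**Figure D4:**
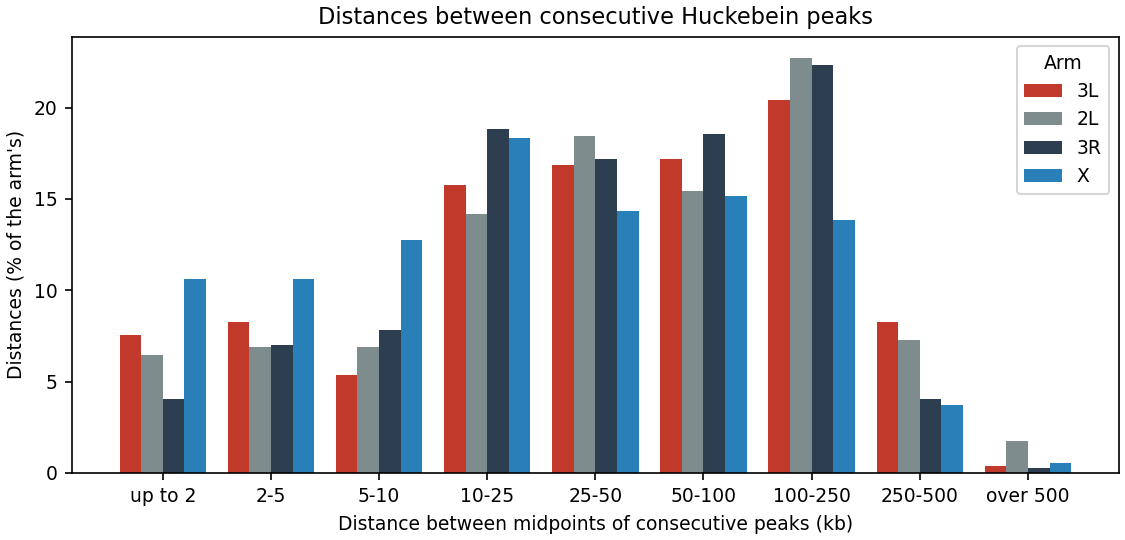
Share of the distances between midpoints of consecutive Huckebein peaks (vertical axis, %) by distance class in kb (horizontal axis) on 3L, 2L, 3R and X. On 3L 15.8% of the distances are up to 5 kb (first 2 classes) and 29.03% exceed 100 kb (last 3 classes).

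A peak with no other within 100 kb is counted here as isolated. On 3L 27 peaks (9.64%) were isolated, against 30 (12.8%) on 2L, 30 (8.04%) on 3R and 17 (4.51%) on X. At the opposite extreme, 83 of the 280 3L peaks (29.6%, 95% Clopper-Pearson interval 24.4 to 35.4%) had another peak within 5 kb. This share was 24.4% on 2L (57 of 234), 20.1% on 3R (75 of 373) and 35.5% on X (134 of 377). The 3L share lay above those of 2L and 3R and below that of X. Its interval overlapped those of 2L (19.0 to 30.4%) and X (30.7 to 40.6%), and that of 3R (16.2 to 24.5%) only slightly.

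The place of 3L in this order depended on its low-scoring peaks. Among peaks scoring 100 or more, 22 of 148 on 3L (14.9%, 95% Clopper-Pearson interval 9.56 to 21.6%) had such a neighbour, against 20 of 122 on 2L (16.4%), 29 of 189 on 3R (15.3%) and 61 of 209 on X (29.2%). With the lower peaks left out, the 3L share was thus close to those of 2L and 3R and below that of X. Of the 42 3L peaks scoring 100 or more that lay in a group as deposited, 20 had only peaks scoring under 100 within 5 kb. On 2L this held for 12 of 32, on 3R for 11 of 40 and on X for 22 of 83.

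Runs of peaks with consecutive midpoints at most 5 kb apart are called groups here. The 83 close peaks of 3L formed 39 groups, of which 35 were pairs, 3 held 3 peaks and 1 held 4. There were 26 groups on 2L, 34 on 3R and 54 on X, and the largest held 4, 5 and 8 peaks on these arms. Groups on 3L spanned 859 to 7121 bp, with a median of 3031 bp, from the start of the first peak to the end of the last. Close peaks on 3L therefore came mainly as pairs a few kilobases across. Pairs made up 89.7% of the groups on 3L, 84.6% on 2L, 88.2% on 3R and 74.07% on X.

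The largest group of 3L lay at 13493902 to 13501022 and held 4 peaks. Its first peak, 13493902 to 13495303, was the widest and highest of them, with 1402 bp and a score of 392.16. The others scored 126.23, 51.42 and 103.31 in order along the arm, and all 4 together covered 54.7% of the 7121 bp. The group was thus made up of a dominant peak and a row of weaker ones on one side of it.

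Of the groups of 3, the first listed here also had its highest peak first, while the others had it last. At 1713132 to 1719512 the scores were 297.26, 111.62 and 155.08 in order along the arm. At 3150038 to 3157122 they were 139.44, 94.66 and 153.92, and at 22459734 to 22465996 they were 102.12, 57.03 and 136.42. In each of these 3 groups the middle peak was the lowest, as an inner peak was in the largest group. The one at 1713132 belonged to the densest 100 kb of the arm, from 1655242 to 1751840, which held 8 peaks scoring 61.04 to 357.41. The densest 100 kb held 8 peaks on 2L, 9 on 3R and 13 on X. The window was picked for its count.

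**Figure D5:**
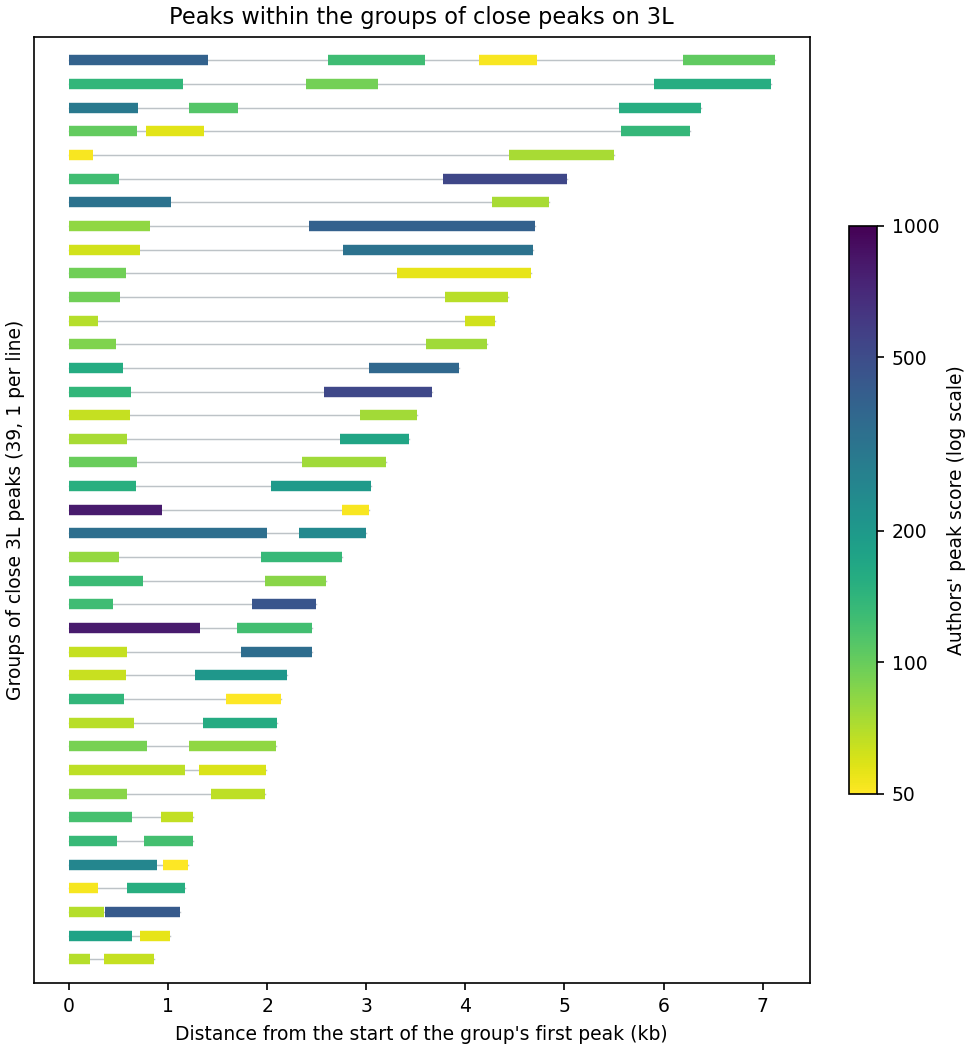
The 39 groups of close 3L peaks, 1 per line, drawn to scale from the start of the first peak (horizontal axis, kb), with each peak as a bar coloured by the authors' score (log scale, dark for high). Most lines hold a pair, and dark bars usually sit beside a pale one.

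The peaks of a pair often differed in score, as scores did across the whole arm (quartiles 69.98 and 178.2). Ratios between 3L peaks that are not close were not computed. The ratios below are therefore not shown to be particular to close pairs. On 3L the higher peak of a pair scored 1.08 to 15.7 times the lower one, with a median of 2.31 over 35 pairs, against medians of 1.84 on 2L (22 pairs), 1.38 on 3R (30 pairs) and 2.12 on X (40 pairs). The ratio was 2 or more in 18 of the 35 pairs on 3L (51.4%), 45.5% of pairs on 2L, 23.3% on 3R and 55% on X. The 3L share of unequal pairs thus lay near that of X and above that of 3R, with no test of these shares. The higher peak came first along the arm in 19 pairs and second in 16, so neither side prevailed. It was the wider of the pair in 26 of 35.

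The ratio was 5 or more in 6 pairs of 3L. The most unequal was 1141858 to 1144888, with scores of 809.28 and 51.44 over widths of 942 and 272 bp. It was followed by 17946640 to 17949093 (800.87 and 124.05), 12204631 to 12205749 (433.91 and 69.73), 21913865 to 21916315 (345.29 and 64.82), 1747156 to 1751840 (322.1 and 61.04) and 5688872 to 5690075 (254.3 and 50.03). In 5 of these 6 the lower peak scored under 100. The choice of pairs largely sets this count. At a ratio of 5 or more, a lower peak of 100 needs a partner of at least 500, and 12 of the 280 peaks reached that. The lowest scores listed were 50.03 on 3L, 50.07 on 2L, 50.02 on 3R and 50.03 on X. Pair ratios are bounded by this floor, as any weaker companion is not listed. The choice of these pairs was made with their values in view.

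The 5 closest pairs of midpoints were separated by very short gaps. At 12204631 to 12204989 and 12204992 to 12205749 only 2 bp lay between the peaks, which scored 69.73 and 433.91. The gaps were 51 bp at 5689765 to 5689817 (scores 254.3 and 50.03), 80 bp at 3959467 to 3959548 (175.45 and 55.65), 83 bp at 22460425 to 22460509 (102.12 and 57.03) and 135 bp at 17378983 to 17379119 (69.84 and 64.86). In 4 of these 5 pairs a low, narrower peak stood directly beside a higher one, while in the last both were low. Picking the shortest midpoint distances favours narrow peaks. Such peaks were low on this arm, with a median score of 63.335 under 400 bp. In all, 17 consecutive 3L peaks were less than 1000 bp apart, end to next start, against 13 on 2L, 12 on 3R and 35 on X. Whether such pairs are separate sites or parts of a site that the peak caller divided was not tested.

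Seen by level, 11 of the 39 groups on 3L held only peaks scoring under 100, 9 held only peaks scoring 100 or more and 19 held both. The groups made up only of peaks under 100 numbered 4 of 26 on 2L, 9 of 34 on 3R and 6 of 54 on X. A peak scoring 200 or more was present in 16 of 39 groups on 3L, 11 of 26 on 2L, 15 of 34 on 3R and 35 of 54 on X. Low groups were therefore a larger part of the 3L groups than of those on X or 2L and a similar part on 3R, a description with no test. Of all peaks, 47.1% scored under 100 on 3L, 47.9% on 2L, 49.3% on 3R and 44.6% on X. Group size was not adjusted for, and pairs were 89.7% of the groups on 3L but 74.07% on X.

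Grouped and single peaks of 3L differed little in score and width. The median score was 102.12 for the 83 grouped peaks (95% order-statistic interval 82.52 to 129.73) and 107.33 for the 197 single ones (94.05 to 132.93). Median widths were 657 bp (590 to 715) and 648 bp (608 to 683). Both pairs of intervals overlapped over most of their length. On X the median score was 132.375 for grouped peaks (107.42 to 168.88) and 102.63 for single peaks (90.42 to 122.45), and the widths were 679.5 and 583 bp. On 2L the median scores of grouped and single peaks were 107.48 and 102.75, and on 3R they were 108.07 and 100.15. Across the score classes of 3L the grouped share stayed between 27.8% (100 to under 200) and 33.3% (500 or more), so close neighbours were found at every score level.

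The share of grouped peaks varied along 3L. It was highest in parts 4 and 5 of the 10, at 41.7% and 40% of 24 and 25 peaks, and lowest in part 9, at 9.09% of 22 peaks. Part 9 held 2 grouped peaks, and among its single peaks were the near-equal ones at 19100349 and 19136784. Parts 1 and 2, which held the most peaks, had 23.7% and 28.2% in groups, whereas part 10, with 37 peaks, had 35.1%. Parts rich in peaks thus lay both below and above the 29.6% of the whole arm.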

How the data were processed

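The deposited file lists intervals with a score per peak and was made by the authors using MACS, according to its track line (per the file headers). The submitters' processing notes name Bowtie as a tool and BDGP5 as the build. The versions, the peak threshold, the use of the input and how replicates were combined are not stated there or in the labels. Depth is unknown, so no interval of a score could be given, and the scale of the score is not stated.

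Starts were taken as 0-based and are printed 1-based. Peaks with 3L in the first column were set beside those on 2L, 3R and X. Distances are between midpoints, and groups are runs of peaks at most 5 kb apart. Intervals of medians (order statistics) and shares (Clopper-Pearson), at 95%, cover the sampling of peaks only and treat them as independent. The software was pandas 2.3.3, SciPy 1.17.1, NumPy 2.4.6 and matplotlib 3.10.9 under Python 3.11.15. Neighbour, group and merging steps were tested on simulated data. Named on 3L by rule were the 12 highest peaks, the 5 widest, the 5 narrowest, groups of 3 or more (at most 8), the 5 closest pairs, the 5 longest peak-free stretches, the densest and emptiest bins (3 each, ties included) and the first and last peak. The regions and rules were chosen with earlier results of these data known. Genes and sequence under the peaks were not analysed here, for want of a genome of this build.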

Additional observations from a re-analysis of the deposited data

How the results depend on the processing

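Of 29 alternative values for 3L under 6 settings, 15 stayed within the interval or within 1.5 times the count and 14 moved; the intervals are those of peaks taken as independent. With only peaks scoring 100 or more, 148 peaks remained (6.46 per Mb), their median width was 753 bp and their median score 173.175, 14.9% had a neighbour within 5 kb and 10 groups were left. In that setting the median score was 157.13 for grouped peaks and 174.53 for single peaks. These shifts follow in part from removing the lower scores by construction. Merging peaks less than 1000 bp apart gave 18.3% of peaks with a neighbour and 23 groups; the merged shares were 15.4% on 2L, 14.4% on 3R and 22.5% on X, the same order as deposited. A limit of 2 kb gave 15%, 21 groups and at most 2 peaks in a group, and a limit of 10 kb gave 38.9%. No paired analysis was possible because a single peak list was analysed, and leaving out a replicate was not possible for the same reason. Read depth is unknown, so its effect on low-scoring peaks could not be assessed.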
